A study of Mus musculus with 62 samples.

Results

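Oligodendrocyte precursor genes were followed through 17 mouse hippocampus libraries, and the receptor gene Gpr17 was described in most detail. The set has 10 genes, chosen by name from the 53975 genes in the abundance tables: Gpr17, Pdgfra, Cspg4, Bcas1, Enpp6, Olig1, Olig2, Sox10, Neu4 and Bmp4. The choice was made with a lower level of Gpr17 in older C57BL/6J mice already known from these libraries, so the differences between ages in C57BL/6J mice are given as a description, without a test. The mice carried the App knock-in allele NL-G-F (strain APP NL-G-F, APP here) or were C57BL/6J mice (WT here, titled Ctrl). RNA came from the left and right hippocampi of 1 mouse per library. Every combination of genotype and age (3, 6 or 12 months) had 3 mice, except WT at 3 months with 2. The design text places the 3 ages before plaques, at plaque appearance and in the late stage of amyloid pathology. In the knock-in, App is changed at its own locus in every cell, so that no cell type is singled out by a transgene promoter. The series also has 14 long-RNA libraries of HT-22, a mouse hippocampal cell line, which were used here only for the level of the same genes. These cells received amyloid beta or a reverse peptide (titled 42 and R), each with anti-Hsf1 or a scramble control (titled ctrl).

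Oligodendrocyte precursor cells divide in the adult brain and give rise to the oligodendrocytes that wrap axons in myelin. Precursors carry the growth factor receptor PDGFRA and the proteoglycan NG2. Cells that leave this state pass through a committed, premyelinating stage, in which the G protein-coupled receptor GPR17 is switched on and then off again before the myelin genes reach full level. The transcription factors OLIG1, OLIG2 and SOX10 are present through the whole lineage. The 10 genes therefore fall into markers of the dividing precursor (Pdgfra, Cspg4), lineage transcription factors (Olig1, Olig2, Sox10), markers of the committed or newly formed cell (Gpr17, Bcas1, Enpp6) and genes that are frequent in precursors or committed cells (Neu4, Bmp4).

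Levels are given in TPM, the authors' length-normalised abundance unit, after each library was divided by a median-of-ratios size factor, and are called scaled TPM. Size factors ran from 0.686 to 1.46, and the deposited TPM of each library summed to 999823 to 999893. Relative depth, read from the most frequent ratio of Coverage to TPM in a library, ran from 0.888 to 1.94. Differences are on the log2 scale of scaled TPM + 1, where changes of weakly expressed genes come out too small. They were tested with limma over all 17768 genes with a mean scaled TPM of at least 1, and a gene was called at a Benjamini-Hochberg adjusted p below 0.05. All 10 members passed this filter. The libraries are bulk tissue, so fewer cells of a type and less RNA per cell cannot be told apart.

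Every member was above 0 in each of the 17 hippocampus libraries, which shows that the genes were detected and not which cells held them. Bcas1 had the highest mean level of the 10, at 49.95 scaled TPM, followed by Olig1 at 44.4. Pdgfra had a mean of 15.6, Sox10 of 14.5, Olig2 of 11.2 and Gpr17 of 10.5. The 4 least abundant members were Cspg4 at 4.59, Enpp6 at 3.98, Neu4 at 2.19 and Bmp4 at 1.32. The members differed in how far they varied between libraries. Pdgfra was the steadiest of the 10, with a coefficient of variation of 9.54%, and Enpp6 was the most variable at 65.5%. Gpr17 and Bcas1 both stood at 48.5%, and their highest library was 4.25 and 5.71 times their lowest. Deposited Coverage (mean read depth over the gene) was lowest for Enpp6, with a median of 0.828 and a lowest value of 0.138, against a median of 10.7 for Gpr17. Bcas1, first by scaled TPM, had a median Coverage of only 6.70. The SE of the log2 change in APP from 3 to 12 months was largest for Bcas1 (0.467), then Bmp4 (0.348) and Enpp6 (0.293).

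**Figure D1:**
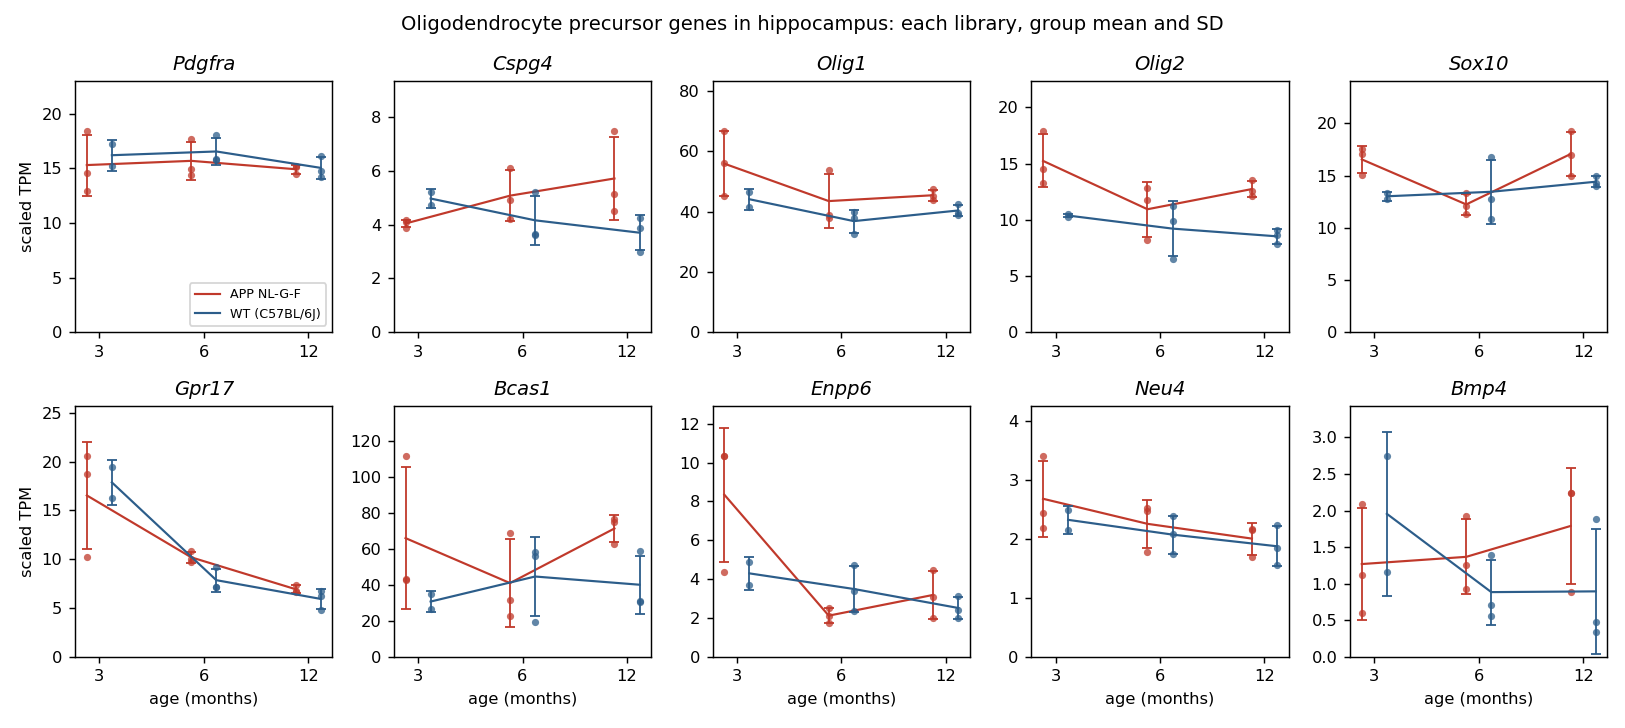
Scaled TPM of the 10 genes (y axis, linear from 0) against age in months (x axis, evenly spaced). Points are libraries, lines join group means and bars are SD (APP n = 3 at each age, WT n = 2 at 3 months and 3 at 6 and 12 months). Gpr17 stood at 10.3 to 20.6 in the 5 libraries of 3 months and at 4.84 to 7.37 in the 6 of 12 months, while Pdgfra kept within 13.0 to 18.4 in all libraries.

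Promoter sequences from RefSeq (GRCm38.p6, 250 bases before to 50 after the start that RefSeq gives) were matched for 6 of the 10 members. Those of Pdgfra, Enpp6 and Olig2 are shown 5′ to 3′ on the strand of the gene because these members show the steady course, the fall in APP mice and a higher level in APP that did not pass the test. Motifs searched on both strands were the SOX motifs ACAAAG and AACAAT and the E-boxes CAGCTG and CAGATG. Capitals mark each match. The intervals are chr5:75152001-75152300 (+) for Pdgfra, chr8:46986637-46986936 (+) for Enpp6 and chr16:91225300-91225599 (+) for Olig2. The RefSeq start is 75152251 for Pdgfra, 46986887 for Enpp6 and 91225550 for Olig2, while the gene starts of the deposited tables are 75152292, 46986887 and 91225457. Positions of motifs are counted from the RefSeq start, so that the match in Olig2 lies inside the gene as the deposited tables place it.
Pdgfra: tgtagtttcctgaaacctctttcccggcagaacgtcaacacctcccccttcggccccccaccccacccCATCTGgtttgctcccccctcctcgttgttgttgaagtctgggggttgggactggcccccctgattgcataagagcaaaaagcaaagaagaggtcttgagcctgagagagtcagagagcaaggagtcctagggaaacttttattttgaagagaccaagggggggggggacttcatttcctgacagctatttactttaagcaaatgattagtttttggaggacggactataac
Enpp6: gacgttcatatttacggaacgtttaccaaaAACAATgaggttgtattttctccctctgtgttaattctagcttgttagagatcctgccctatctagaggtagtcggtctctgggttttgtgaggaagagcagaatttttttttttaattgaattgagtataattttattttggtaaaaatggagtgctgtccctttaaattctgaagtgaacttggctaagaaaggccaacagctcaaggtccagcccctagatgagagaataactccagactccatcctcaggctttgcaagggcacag
Olig2: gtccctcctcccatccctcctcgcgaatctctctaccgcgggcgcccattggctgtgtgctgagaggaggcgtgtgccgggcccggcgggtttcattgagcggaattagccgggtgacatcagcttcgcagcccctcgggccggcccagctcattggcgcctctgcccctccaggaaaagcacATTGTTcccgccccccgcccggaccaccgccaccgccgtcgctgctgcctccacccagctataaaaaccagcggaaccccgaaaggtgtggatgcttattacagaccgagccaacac
The Enpp6 promoter held AACAAT as printed, starting at position -220 from the RefSeq start, and that of Olig2 held it on the opposite strand at position -67. The Pdgfra promoter held CAGATG on the opposite strand at position -182. The promoters of Cspg4, Neu4 and Bmp4 held no match in this window. Of all 32851 promoters of the same length, 18.7% held ACAAAG, 10.7% AACAAT, 16.3% CAGCTG and 17.2% CAGATG, so that matches of this kind were common.

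Gpr17 (ENSMUSG00000052229, protein-coding, minus strand of chromosome 18, 31942997 to 31949636 on GRCm38) encodes the receptor of the committed stage. It fell with age in APP mice. In APP mice of 3 months it stood at 18.8, 10.3 and 20.6 scaled TPM in replicates 1, 2 and 3. At 6 months the values were 9.71, 10.01 and 10.9, and at 12 months they were 6.65, 6.76 and 7.37. All 12-month libraries lay below all libraries of 3 and of 6 months, whereas replicate 2 of the 3-month group lay among the 6-month libraries. From 3 to 12 months the log2 change was -1.09 ± 0.20 (SE, 95% interval -1.51 to -0.67), with an adjusted p of 0.00891 by limma. On the scale of scaled TPM + 1 this is 0.469 times the level at 3 months. Gpr17 was the only member called in this comparison, in which 3.32% of all genes tested were called, 1.48% as lower and 1.84% as higher. Its change ranked 155 from the lowest of 17768. From 3 to 6 months the change was -0.59 ± 0.20 (adjusted p = 0.12), and from 6 to 12 months it was -0.50 ± 0.20 (adjusted p = 0.347), and neither was called. A fit to the 6 libraries of the 12- and 3-month groups alone gave the same size without the call (adjusted p = 0.0967). Without replicate 2 of the 3-month group, the change from 3 to 6 months was -0.89 and was called (adjusted p = 0.0119).

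WT mice had the same order of ages for Gpr17. Its levels were 16.3 and 19.5 scaled TPM at 3 months, 7.20, 7.16 and 9.20 at 6 months and 6.19, 6.77 and 4.84 at 12 months. The 3 ages did not overlap in WT. The log2 differences were -1.09 at 6 against 3 months, -1.45 at 12 against 3 months and -0.36 at 12 against 6 months, and they are the values that led to the choice of the set, or share libraries with them. Ranked by mean, Gpr17 was highest in WT at 3 months (17.9 ± 2.29, SD, n = 2), then in APP at 3 months (16.5 ± 5.51, n = 3), APP at 6 months (10.2 ± 0.60), WT at 6 months (7.85 ± 1.16), APP at 12 months (6.92 ± 0.39) and WT at 12 months (5.93 ± 0.99). Neighbours in that order overlapped except APP and WT at 6 months, where every APP library lay above every WT library.

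Age of the mice was not the only thing that differed between the WT groups. Xist, the RNA of the inactive X chromosome, stood at 71.2 to 138 scaled TPM in all APP libraries and at 91.5 and 92.4 in WT at 3 months, but at 0.266 to 0.522 in WT at 6 and 12 months, where the Y-linked Ddx3y stood at 18.6 to 28.3. The labels give no sex. In WT the step from 3 months to the later ages, and in the later ages the step from WT to APP, therefore went with sex, and the 2 cannot be told apart there. The APP libraries had the Xist level of females at all 3 ages, so the fall of Gpr17 in APP mice was seen without a change of sex. Xist was not constant in APP, however. By limma it was higher than at 3 months by 0.67 ± 0.10 at 6 months (adjusted p = 0.00893) and by 0.45 ± 0.10 at 12 months (adjusted p = 0.0274).

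The change of Gpr17 from 3 to 12 months was -1.09 in APP and -1.45 in WT. The difference between genotypes in this change, 0.36 for Gpr17, draws on the WT ages that led to the choice of the set, and such differences are given as descriptions without a test. In the fit across all genes 0.0732% of genes were called in this comparison (0.0394% higher, 0.0338% lower) and 0 members, from which nothing is read. The comparison also went with sex, since only WT changed its Xist level between these ages. Xist and the Y-linked Ddx3y, Eif2s3y, Uty and Kdm5d were among the genes called. Gpr17 in APP against WT differed by -0.16 ± 0.22 at 3 months, 0.35 ± 0.20 at 6 months (adjusted p = 0.408) and 0.20 ± 0.20 at 12 months (adjusted p = 0.963), and was called at none of these ages. The intervals allow a difference of -0.63 to 0.31 at 3 months, -0.08 to 0.77 at 6 months and -0.22 to 0.62 at 12 months. These comparisons use the WT libraries in which a lower Gpr17 at older ages was known when the set was chosen. For Gpr17 the p-values and intervals against WT are therefore not free of that choice, and nothing is read from them.

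The span of Gpr17 lies wholly inside Lims2, a gene of the plus strand of chromosome 18 (31922290 to 31958619), and no source used here says whether reads were counted by strand, so reads of the 2 genes may not be told apart. Lims2 was listed at 3.72 to 6.94 scaled TPM in APP mice of 3 months, 2.70 to 4.95 at 6 months and 2.79 to 3.04 at 12 months. All its 12-month libraries in APP thus lay below all those of 3 months, as for Gpr17. In WT, Lims2 stood at 1.85 to 3.48 at all ages. Its mean in APP went from 4.90 at 3 months to 2.90 at 12 months, while that of Gpr17 went from 16.5 to 6.92. The part of Lims2 in the Gpr17 result was not tested.

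Pdgfra (ENSMUSG00000029231, chromosome 5, 75152292 to 75198215), the receptor that keeps precursors dividing, did not follow Gpr17. Its levels in APP were 18.4, 13.0 and 14.5 scaled TPM at 3 months, 14.9, 14.4 and 17.7 at 6 months and 14.5, 15.2 and 15.1 at 12 months. In WT they were 15.2 and 17.2 at 3 months, 18.01, 15.9 and 15.8 at 6 months and 14.2, 16.1 and 14.8 at 12 months. No compared pair of groups was separate, and the highest library was 1.42 times the lowest. The change in APP from 3 to 12 months was -0.02 ± 0.12 (95% interval -0.28 to 0.24, adjusted p = 0.96), an interval that does not reach the fall of Gpr17. The differences between genotypes were -0.09, -0.08 and -0.01 at 3, 6 and 12 months, with no interval reaching beyond -0.38 or 0.25.

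The ratio of Gpr17 to Pdgfra within each library does not depend on the size factor apart from the added 1. As log2 of (TPM + 1), it was -0.31 to 0.47 in APP at 3 months, -0.67 to -0.49 at 6 months and -1.06 to -0.95 at 12 months, so the 3 ages did not overlap in APP. In WT it was 0.09 to 0.17 at 3 months, -1.17 to -0.71 at 6 months and -1.45 to -1.07 at 12 months, where the later ages overlapped. Against Olig2 the ratio went from 0.06 ± 0.41 (SD, n = 3) at 3 months to -0.07 ± 0.40 at 6 months and -0.79 ± 0.12 at 12 months in APP. In WT it was 0.73 ± 0.20 (n = 2), -0.18 ± 0.34 and -0.47 ± 0.31 at the same ages.

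**Figure D2:**
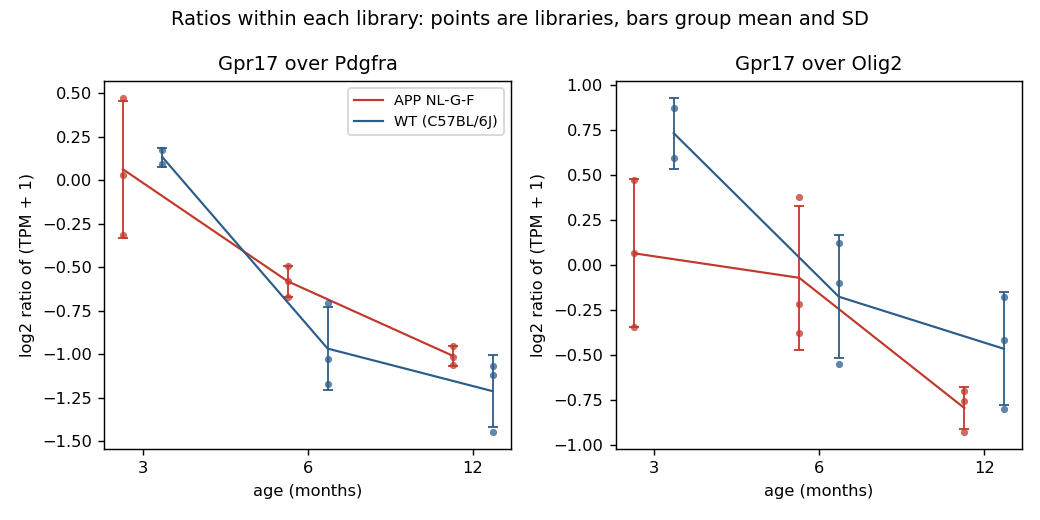
Log2 ratio of Gpr17 (TPM + 1) to Pdgfra and Olig2 (TPM + 1) within each library (y axis, not starting at 0) against age in months (x axis, evenly spaced). Points are libraries, bars mean and SD by group. In APP the ratio to Pdgfra lay between -0.31 and 0.47 at 3 months and between -1.06 and -0.95 at 12 months, and the mean ratio to Olig2 was 0.06 and -0.79 at these ages.

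Cspg4 (ENSMUSG00000032911, chromosome 9, 56865033 to 56899870) encodes NG2, which pericytes of vessels also carry. It stood at 4.16, 4.09 and 3.88 scaled TPM in APP at 3 months, 6.09, 4.22 and 4.93 at 6 months and 4.53, 5.15 and 7.48 at 12 months. In WT it stood at 4.72 and 5.23 at 3 months, 3.66, 3.61 and 5.22 at 6 months and 3.86, 2.98 and 4.26 at 12 months. The means went up with age in APP and down in WT, and at 12 months every APP library lay above every WT library. Neither tested difference was called: 12 against 3 months in APP gave 0.39 ± 0.18 (adjusted p = 0.30) and APP against WT at 12 months 0.50 ± 0.18 (adjusted p = 0.48). The difference between genotypes in the change from 3 to 12 months, as a description that also went with sex, was 0.74. The 8 mural cell genes, which mark the other cells that carry NG2, summed to 48.3 to 54.3 scaled TPM in APP at 3 months and 47.9 to 69.1 at 12 months, and none of the 7 tested was called in any comparison.

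From 3 to 12 months in APP, none of the 3 transcription factors was called. Olig2 (ENSMUSG00000039830, chromosome 16, 91225457 to 91228677) stood at 17.9, 13.3 and 14.5 scaled TPM in APP at 3 months, 12.9, 11.8 and 8.19 at 6 months and 13.6, 12.1 and 12.6 at 12 months. In WT it stood at 10.5 and 10.3 at 3 months, 11.2, 6.49 and 9.93 at 6 months and 8.63, 7.83 and 9.12 at 12 months. From 3 to 6 months in APP, Olig2 changed by -0.46 ± 0.18 (adjusted p = 0.185), without overlap of the groups and without a call. APP libraries lay above WT libraries without overlap at 3 and at 12 months, by 0.50 ± 0.20 (adjusted p = 0.285) and 0.53 ± 0.18 (adjusted p = 0.426), and neither difference was called. No member was called in APP against WT at any age, in comparisons in which 0.298% (3 months), 1.51% (6 months) and 0.45% (12 months) of all genes were called. By direction, 0.124%, 0.394% and 0.428% of genes were called higher and 0.174%, 1.11% and 0.0225% lower.

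Olig1 (ENSMUSG00000046160), which neighbours Olig2 on chromosome 16 (91269772 to 91271933), had the course most like it, with a Pearson r of 0.774 over the 17 libraries, the highest of all pairs of members. This is a description of libraries that share depth and scaling. Olig1 ran from 37.7 to 66.6 scaled TPM in APP and from 32.6 to 46.6 in WT. Its change in APP was -0.36 ± 0.15 at 6 against 3 months (adjusted p = 0.204) and -0.28 ± 0.15 at 12 against 3 months (adjusted p = 0.372). Sox10 (ENSMUSG00000033006, chromosome 15, 79154908 to 79165240) stood at 17.5, 15.1 and 17.05 in APP at 3 months, 13.3, 12.1 and 11.3 at 6 months and 19.2, 14.9 and 17.01 at 12 months. All 6-month libraries lay below all those of 3 and 12 months, with changes of -0.41 ± 0.14 from 3 to 6 months (adjusted p = 0.119) and 0.44 ± 0.14 from 6 to 12 months (adjusted p = 0.206). No member was called in APP at 12 against 6 months, where 0.529% of all genes were (0.507% higher, 0.0225% lower).

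Enpp6 (ENSMUSG00000038173, chromosome 8, 46986887 to 47096762) encodes a choline phosphodiesterase of newly formed oligodendrocytes. It fell in APP mice from 3 to 6 months. The 3-month libraries stood at 10.3, 4.36 and 10.3 scaled TPM, those of 6 months at 2.52, 2.11 and 1.72, and those of 12 months at 3.08, 4.46 and 2.02. Every 6-month library lay below every 3-month library, and replicate 2 at 3 months was again the low one. The change from 3 to 6 months was -1.51 ± 0.29 (95% interval -2.13 to -0.89), a level of 0.351 times that at 3 months on the scale of scaled TPM + 1, with an adjusted p of 0.0186. Enpp6 was the only member called in this comparison, in which 2.18% of all genes were called, 1.1% as lower and 1.09% as higher. The change from 3 to 12 months was -1.12 ± 0.29 and just missed the threshold (adjusted p = 0.0503). The call from 3 to 6 months was lost in a fit to the 6 libraries of the contrast (adjusted p = 0.162) and without APP 3-month replicate 1 (0.0648), and with replicate 2 (0.075) or replicate 3 (0.0815) of the APP 6-month group left out. Without APP 3-month replicate 2 the change from 3 to 12 months was called as well (adjusted p = 0.0112).

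Enpp6 in APP against WT at 3 months gave 0.75 ± 0.33, which was not called (adjusted p = 0.334). WT libraries stood at 4.90 and 3.69 at 3 months, 3.40, 2.35 and 4.73 at 6 months and 2.41, 2.01 and 3.12 at 12 months. In WT the log2 difference was -0.26 at 6 against 3 months and -0.59 at 12 against 3 months. The difference between genotypes in the change from 3 to 12 months was -0.52, as a description that also went with sex.

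Bcas1 (ENSMUSG00000013523, chromosome 2, 170346991 to 170427845) marks myelinating and premyelinating oligodendrocytes. Mice of 1 group differed widely. Bcas1 stood at 112, 43.4 and 42.7 scaled TPM in APP at 3 months, 68.5, 31.6 and 22.7 at 6 months and 74.7, 76.3 and 62.6 at 12 months. In WT it stood at 34.8 and 26.5, at 58.3, 55.8 and 19.5, and at 30.5, 58.5 and 31.0 at the same ages. APP lay above WT without overlap at 3 and 12 months, by 0.94 ± 0.52 (adjusted p = 0.476) and 0.88 ± 0.47 (adjusted p = 0.793). Neither passed the test.

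Neu4, a sialidase gene, and Bmp4, which encodes a ligand that holds precursors back from maturing, were the least abundant members. Neu4 (ENSMUSG00000034000, chromosome 1, 94020451 to 94028334) stood at 2.19 to 3.41 scaled TPM in APP at 3 months and at 1.69 to 2.17 at 12 months, which do not overlap, with a change of -0.28 ± 0.17 (adjusted p = 0.451). Bmp4 (ENSMUSG00000021835, chromosome 14, 46383520 to 46390669) stood at 0.336 to 2.75 over all libraries, and no compared pair of groups was separate. Its largest difference between genotypes was 0.60 ± 0.35 at 12 months (95% interval -0.14 to 1.35, adjusted p = 0.833).

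**Figure D3:**
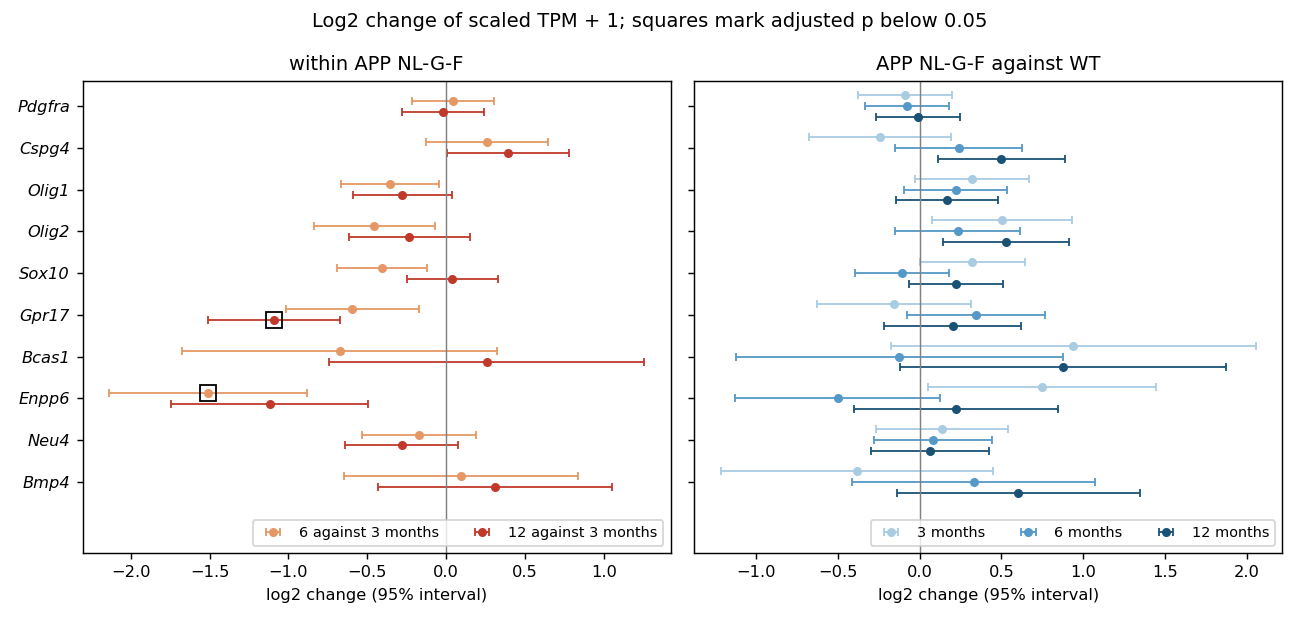
Log2 change of scaled TPM + 1 (x axis) for each gene (y axis) in APP mice at 6 and 12 against 3 months (left) and in APP against WT at each age (right). Points are limma estimates with 95% intervals, and squares mark an adjusted p below 0.05, which Gpr17 reached at 12 against 3 months (-1.09) and Enpp6 at 6 against 3 months (-1.51).

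Read as a set, the members did not all move in the same direction. In APP from 3 to 6 months 7 of 10 log2 changes were below 0, with a median of -0.38, beside 52.9% and a median of -0.02 over all genes tested. From 3 to 12 months 6 of 10 were below 0, with a median of -0.13, beside 50.4% and a median of 0.00. Groups without overlap were found for 3 members lower and 1 higher from 3 to 6 months (all genes 10.9% and 9.49%), for 2 lower and 1 higher from 3 to 12 months (11.4% and 10.6%), and for 1 lower and 1 higher from 6 to 12 months (8.94% and 10.8%). In APP against WT the members without overlap were 3 higher and 1 lower at 3 months (14.1% and 13%), 1 higher at 6 months (11% higher, 10.2% lower over all genes) and 4 higher and none lower at 12 months (8.76% and 6.69%). The 4 at 12 months were Cspg4, Bcas1, Olig1 and Olig2. In WT, where the ages led to the choice of the set, the members without overlap were 2 lower from 3 to 6 months (all genes 16.7% lower, 14.9% higher), 4 lower and 1 higher from 3 to 12 months (14.6% and 12.4%) and 1 lower from 6 to 12 months (6.14% lower, 5.93% higher). Gpr17 was among the lower ones each time.

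Other genes of the lineage were taken from lists written with earlier results of these data known. Of 20 further precursor genes 19 were tested, and none was called in APP between ages. Their summed level was 266 to 333 scaled TPM in all libraries. In APP against WT, Tnr, the gene of tenascin-R, was higher at 6 months by 0.48 ± 0.09 (adjusted p = 0.0254). It stood at 51.9, 49.6 and 48.4 scaled TPM in APP and 35.7, 34.8 and 36.3 in WT, and no other gene of this list was called at any age. That comparison went with sex, as above.

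Of 15 further genes of the committed stage, Ust and Mycl were called in APP, and both rose with age. Ust, which encodes a sulfotransferase, rose by 0.68 ± 0.15 from 3 to 6 months (adjusted p = 0.0313) and by 0.74 ± 0.15 from 3 to 12 months (adjusted p = 0.0156). It stood at 7.16 to 11.4 scaled TPM in APP at 3 months and 13.7 to 16.7 at 12 months. Mycl, a transcription factor of the MYC family, rose by 0.75 ± 0.14 from 3 to 6 months (adjusted p = 0.0178) and by 0.66 ± 0.14 from 3 to 12 months (adjusted p = 0.0225). Both were lower in APP than in WT at 3 months, Ust by -1.08 ± 0.17 (adjusted p = 0.0197) and Mycl by -0.91 ± 0.16 (adjusted p = 0.0365). The other 13 genes of the list were called in none of these comparisons, and the list as a whole had median changes of -0.01 and -0.10 in APP from 3 to 6 and to 12 months. In WT, given as a description, both genes were lower at the later ages: Ust had means of 19.9, 13.4 and 14.4 scaled TPM and Mycl of 10.00, 5.62 and 7.45 at 3, 6 and 12 months. The log2 difference in WT was below 0 for 14 of the 15 genes at 6 against 3 months (median -0.28, beside 49.5% of all genes) and for 15 of 15 at 12 against 3 months (median -0.31, beside 51.2%).

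Most genes of the later stage of the lineage were lower in APP at 6 and 12 months than at 3 months. Of 18 mature oligodendrocyte genes, 12 were called lower from 3 to 6 months and 7 from 3 to 12 months, with median changes of -0.93 and -0.58. Mbp, the myelin basic protein gene, changed by -1.01 ± 0.19 (adjusted p = 0.0179) and -0.90 ± 0.19 (adjusted p = 0.0212), and Mal, a gene of myelin membrane traffic, by -1.19 ± 0.20 (adjusted p = 0.0134) and -1.05 ± 0.20 (adjusted p = 0.0134). The 18 genes summed to 2021 to 3372 scaled TPM in APP at 3 months, 1176 to 1470 at 6 months and 1565 to 1733 at 12 months. In WT the sums were 1820 to 1917, 1074 to 1425 and 1358 to 1388. In APP against WT at 3 months Ermn (0.89 ± 0.16, adjusted p = 0.0428) and Klk6 (1.92 ± 0.37, adjusted p = 0.0459) were higher. Klk6 had no signal in WT mice of this age (0 scaled TPM, n = 2), so the size of its difference depends on the added 1. The APP mice spanned 0.996 to 5.32 scaled TPM for Klk6. Leaving out APP replicate 1, 2 or 3 of this age gave 8, 34 and 369 genes called in this comparison, in place of 53.

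The members followed this sum to different degrees. Over the 17 libraries the Pearson r with the mean log2 level of the 18 genes was 0.886 for Olig1, 0.775 for Enpp6, 0.773 for Olig2 and 0.739 for Sox10. It was 0.511 for Gpr17 and 0.039 for Pdgfra. These are descriptions over libraries that share depth and scaling. The 2 WT libraries of 3 months had Gpr17 within the range of the APP libraries of that age at a lower sum of mature genes. The APP libraries of 3 months set the base of the changes from 3 months in APP. Their replicates 1 and 2 held more RNA of genes of neighbouring tissue than the WT libraries of that age. In replicates 1, 2 and 3, 6 thalamic genes summed to 539, 186 and 71.1 scaled TPM, against 172, 47.4 and 50.5 at 6 months and 53.5 to 61.7 at 12 months. In the same order 7 striatal genes summed to 211, 86.9 and 67.1, against 47.7 to 58.4 at 6 months and 47.9 to 58.8 at 12 months. The thalamic Rora and the striatal Rgs9 were called lower at 12 months. In WT at 3 months the thalamic genes summed to 52.9 to 72.1 and the striatal genes to 61.2 to 67.1. APP replicate 3 of 3 months lay within these WT ranges. It had the smallest thalamic and striatal sums of the 3 APP replicates and the highest Gpr17. Without replicate 1, which had the largest sums, Gpr17 changed by -0.98 from 3 to 12 months (adjusted p = 0.032) and Enpp6 by -1.33 from 3 to 6 months (adjusted p = 0.0648). The part of tissue from outside the hippocampus in the changes of Gpr17, Enpp6, Ust, Mycl and the mature oligodendrocyte genes was not tested.

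**Figure D4:**
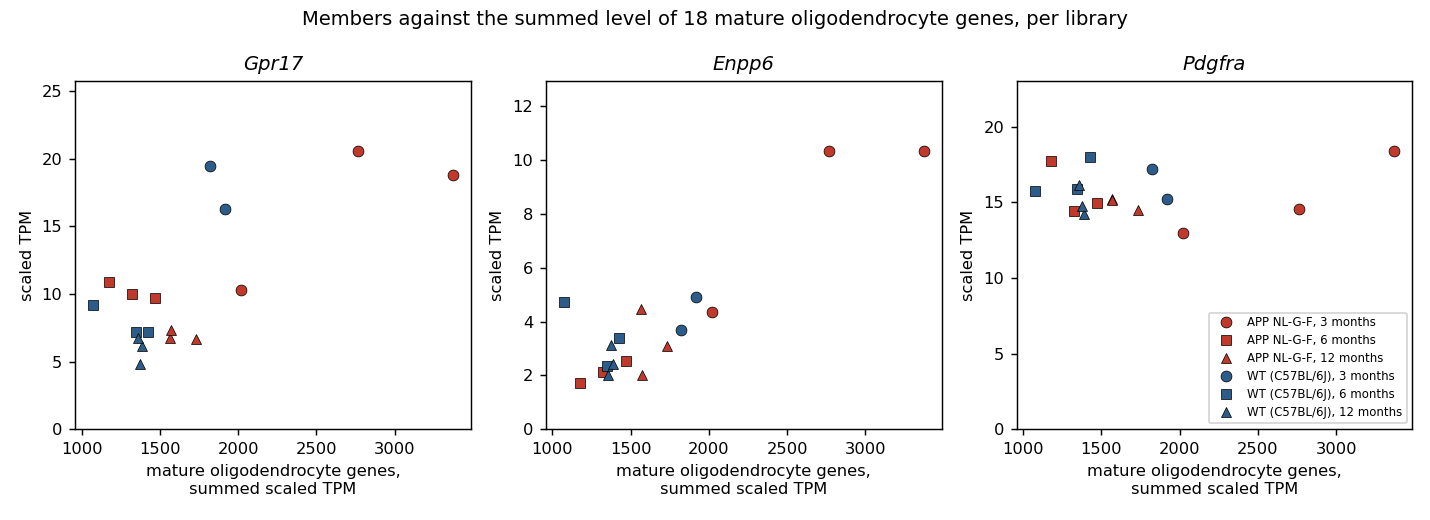
Scaled TPM of Gpr17, Enpp6 and Pdgfra (y axes) against the summed scaled TPM of 18 mature oligodendrocyte genes (x axis) in the 17 mouse libraries, coloured by genotype and shaped by age. The 2 WT libraries of 3 months lie at 16.3 and 19.5 for Gpr17 at sums of 1820 to 1917, and the APP libraries of 3 months extend to a sum of 3372.

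Few partner genes of the members were called. Of 6 PDGF ligand and receptor genes 5 were tested and none was called in any comparison. Pdgfa, the ligand of the receptor PDGFRA, changed by -0.22 ± 0.14 in APP from 3 to 12 months (adjusted p = 0.484), and Pdgfb by 0.28 ± 0.21 (adjusted p = 0.58). Of 20 BMP pathway genes 18 were tested. Chrd, the gene of the BMP antagonist chordin, rose by 0.86 ± 0.21 in APP from 3 to 6 months (adjusted p = 0.0492), and Smad1, a transducer of BMP signals, fell by 0.57 on the log2 scale (SE 0.13) from 3 to 12 months (adjusted p = 0.0265). Of 16 genes for ligands, relatives and signalling of GPR17, 13 were tested and none was called. Gnai1, an inhibitory G protein subunit, changed by -0.04 ± 0.11 from 3 to 12 months (adjusted p = 0.901). None of 9 genes that hold the lineage back or regulate it was called, among them Tcf4 (0.68 ± 0.23 from 3 to 12 months, adjusted p = 0.138) and Nfix (0.53 ± 0.26, adjusted p = 0.336).

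Glial genes outside the lineage changed over the same months. Of 8 microglial genes, 5 rose in APP from 3 to 12 months, Tyrobp by 2.39 ± 0.31 (adjusted p = 0.00151), and of 7 astrocyte genes, 2 rose, Gfap by 2.43 ± 0.30 (adjusted p = 0.00114). The astrocyte genes summed to 769 to 963 scaled TPM at 3 months and 1380 to 1547 at 12 months, and the microglial genes to 126 to 138 and 311 to 395. None of 8 neuronal, 7 fibroblast, 6 endothelial or 6 choroid plexus genes was called between these ages. Neuronal genes summed to 1682 to 2374 at 3 months and 1950 to 2053 at 12 months, and choroid plexus genes to 590 to 2468 and 1438 to 1666. The part of these shifts in the levels of the members was not tested.

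Genes most like Gpr17 over the 17 libraries were ranked by Pearson r of log2 scaled TPM + 1. The 10 highest were Syt11 (0.895), Nfil3 (0.886), Sox11 (0.883), Emc3 (0.868), Fyn (0.866), Sox4 (0.864), Bzw1 (0.849), Krt222 (0.842), Atf4 (0.842) and Siah3 (0.835), where the middle of all genes lay between -0.23 and 0.25. Fyn, a kinase of the SRC family, belongs to the list of committed-stage genes, but it also stood at 16.5 to 44.7 TPM in HT-22 cells. None of the others is in the lists of lineage or cell type genes used here. No other member was near the top: Enpp6 ranked 391 of 17767 (0.646), Neu4 654 (0.593) and Olig1 1167 (0.516), and Sox10 and Bcas1 had r of -0.06 and -0.08. Over the 9 APP libraries alone, Hsph1 (0.99) and Hook3 (0.978) ranked first, with Emc3 and Bzw1 again among the first 10.

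HT-22 cells had 2 of the 10 genes above 1 TPM. Pdgfra stood at 71.3 to 151 TPM (median 114) and Cspg4 at 8.78 to 59.2 TPM (median 16.3) in the 14 libraries, as deposited and not scaled with the mouse libraries. These ranges pool all treatments, which were not compared by a test. With amyloid beta, Cspg4 stood at 8.78 to 8.81 TPM under anti-Hsf1 and 16.0 to 59.2 under scramble. With the reverse peptide it stood at 16.2 to 18.7 under anti-Hsf1 and 13.4 to 35.1 under scramble. Bcas1, Enpp6, Olig2, Neu4 and Bmp4 were listed at 0 in all 14. Gpr17 was listed at 0 in 12 of 14 and reached 0.122 TPM, Olig1 was at 0 in 13, and Sox10 was at 0 in 8 and reached 0.453. The mature gene Mbp was at 0 in 12 and Mog in 7. In this line, Pdgfra and Cspg4 were present with the transcription factors of the lineage listed at or near 0.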

How the data were processed

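RNA from 17 mouse hippocampus and 14 HT-22 long-RNA libraries was read from gene abundance tables. The authors deposited TPM and a coverage signal per gene and library, per the file headers; coordinates are GRCm38. The submitters' processing notes name cutadapt 1.18, HISAT2 2.1.0 and StringTie 1.3.4d among the tools. Long RNA was depleted of ribosomal RNA, per the labels' protocols. Counts of reads cannot be read from TPM. The 31 short-RNA files were not used here.

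TPM was summed per gene identifier and divided by a median-of-ratios size factor over 20713 genes. All 17 libraries in 6 groups entered 1 limma 3.58.1 fit (R 4.3.3; trend, robust) on log2(scaled TPM + 1), for genes with a mean of at least 1, adjusted by Benjamini-Hochberg. The fit was tested on simulated data. Each library is 1 mouse. The members and lists were chosen with earlier results of these data known. All members are named; other genes are at most 6 called per list, otherwise at most 2 of the highest level. Lims2 was named because it overlaps Gpr17. Alternatives were other scalings, pseudocounts, filters and groups in the fit, a replicate block and leaving out each library. Some results are not reported here.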

Additional observations from a re-analysis of the deposited data

How the results depend on the processing

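Of the 462 values of single members under other settings, 440 kept both direction and side of the threshold. Of the 460 values with 1 library left out, 419 did. Only Gpr17 at 12 against 3 months and Enpp6 at 6 against 3 months were called in the main fit in APP, and no member elsewhere. Most values could therefore hardly change side, and these counts say little about the 2 calls. The totals include the genotype by age comparison. Gpr17 in APP at 12 against 3 months ranged from -1.38 to -0.91 with 1 library left out (adjusted p 0.000513 to 0.0393) and from -1.18 to -1.08 under the other settings (adjusted p 0.0075 to 0.0967). The causes of the changes below were not tested, except where fewer genes or samples entered.

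Scaling mattered most in APP against WT at 6 months. On TPM as deposited the median of all genes moved by 0.60, and 10339 genes (10267 higher, 72 lower) and 7 members were called, in place of 268 (70 higher, 198 lower) and 0: Gpr17, Pdgfra (0.602), Cspg4, Olig1, Olig2, Sox10 (0.559) and Neu4 were higher, with Gpr17 the largest at 0.987. Bcas1 (0.577) and Enpp6 (0.015) also reversed. Elsewhere on deposited TPM, Cspg4 (-0.140), Olig1 (-0.233) and Olig2 (-0.070) reversed in APP at 12 against 6 months, Neu4 in APP at 6 against 3 months (0.059) and against WT at 3 months (-0.004), Pdgfra against WT at 12 months (0.124), and Bcas1 (0.270), Neu4 (0.159), Olig1 (0.180) and Sox10 (0.219) in the genotype by age comparison. Genes called were then 1270 (6 against 3 months, median shift 0.26), 286 (12 against 3), 26 (12 against 6, shift -0.28) and 81 (genotype by age, shift 0.29). With quantile normalisation Pdgfra at 12 against 3 months was 0.005, and 62 genes were called at 12 against 6 months; a pseudocount of 0.1 gave 46 there.

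With only the groups of a contrast in the fit, no member was called at 6 against 3 or 12 against 3 months (0 and 0), and genes called were 2, 152 and 1 in the 3 age comparisons of APP, 4 and 40 against WT at 3 and 6 months and 35 for genotype by age. Without a filter 169 genes were called at 6 against 3 months, 35 and 101 against WT at 3 and 6 months and 22 for genotype by age. With a mean of at least 5, where Cspg4, Enpp6, Neu4 and Bmp4 are not tested, 0 members were called at 6 against 3 months and 50 genes against WT at 12 months.

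With 1 library left out, genes called ranged from 33 to 574 (6 against 3 months), 144 to 748 (12 against 3), 0 to 124 (12 against 6), 8 to 369, 63 to 276 and 25 to 47 (APP against WT at 3, 6 and 12 months) and 9 to 63 (genotype by age). Members called ranged from 0 to 2 at 6 against 3 and 1 to 2 at 12 against 3 months. Log2 changes that crossed 0 were Pdgfra (-0.062 to 0.175) and Bmp4 (-0.135 to 0.344) at 6 against 3 months, Pdgfra (-0.125 to 0.112) and Sox10 (-0.048 to 0.125) at 12 against 3, and Pdgfra (-0.117 to 0.022), Cspg4 (-0.048 to 0.26) and Olig1 (-0.012 to 0.239) at 12 against 6. Against WT they were Gpr17 (-0.334 to 0.136), Pdgfra (-0.221 to 0.015), Neu4 (-0.002 to 0.230) and Bmp4 (-0.778 to 0.015) at 3 months, Bcas1 (-0.622 to 0.213) and Sox10 (-0.244 to 0.051) at 6 months and Pdgfra (-0.046 to 0.039) and Neu4 (-0.016 to 0.154) at 12 months. For genotype by age they were Pdgfra (-0.025 to 0.212), Bcas1 (-0.294 to 0.389), Olig2 (-0.061 to 0.138) and Neu4 (-0.164 to 0.068).

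Replicate numbers were not taken to pair the libraries, since not every pair had a correlation above 0.1: correlations of same-numbered deviations ran from -0.066 to 0.227 over 17 pairs, and 21 of 35 samples correlated best with their own number, among them 6 of 6 at 6 against 3 months in APP (0.065 to 0.227), a hint from the data and not the design. With the replicate block, genes called were 356, 491 and 73 in the age comparisons of APP, 52, 290 and 74 against WT and 16 for genotype by age, and the calls of Enpp6 (adjusted p 0.0257) and Gpr17 (adjusted p 0.0146) were kept.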
